A study of Mus musculus with 19 samples.

Results

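The genes described here are the major histocompatibility complex (MHC) class I and class II genes of mouse lymphoid progenitors, with the proteins that pair with their chains and the coactivators that switch them on. They were chosen by name from the deposited table: B2m, H2-K1, H2-D1, H2-Q7, H2-Aa, H2-Ab1, H2-Eb1, Cd74, Ciita and Nlrc5. All 10 were present among the 18607 genes of the table, and 0 of the 10 were removed by a filter on low values, since none was applied. RNA was sequenced from progenitors sorted from bone marrow of C57BL/6 mice, in 19 libraries at 3 stages on the way to innate lymphoid cells (ILC), the tissue lymphocytes without rearranged antigen receptors. ALP (7 libraries) were the earliest stage, sorted as lineage-low, Ly-6D-low cells with Kit, IL-7Ra and high Flt3. EILP (7 libraries) were early innate lymphoid progenitors with Kit and high GFP, low CD122 and Thy-1.2, and IL-7Ra at intermediate to low levels. ILCp (5 libraries) were later progenitors with Kit, high GFP, Thy-1.2, a4b7 integrin and high IL-7Ra. All 7 ALP, all 7 EILP and 3 ILCp libraries came from Tcf7EGFP/+ mice, which carry a GFP reporter on 1 allele of Tcf7, the gene of the transcription factor TCF-1. ILCp 4 and ILCp 5 came from Plzf-cre-GFP/+ mice, in which GFP reports the factor PLZF. The labels give neither ages nor whether a separate animal stands behind each library. The p-values below therefore describe the scatter of these libraries, part of which may be technical.

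MHC class I molecules sit on nearly all nucleated cells and show peptides from inside the cell to CD8 T cells and NK cell receptors. They are made of a heavy chain (H2-K1, H2-D1, H2-Q7) and beta-2 microglobulin (B2m), and they take up peptides cut by the proteasome and carried into the endoplasmic reticulum. MHC class II molecules (H2-Aa, H2-Ab1, H2-Eb1) show peptides from endosomes to CD4 T cells and are best known from B cells, dendritic cells and macrophages. The invariant chain Cd74 escorts them and blocks their groove until H2-DM helps a peptide in. NLRC5 for class I and CIITA for class II do not bind DNA alone, and join a complex of RFX, CREB and NF-Y proteins on a shared promoter module. Some mature ILC are known to carry class II molecules.

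Values are the authors' log2 CPM (counts per library size on a log2 scale), and the values themselves show that differences between the 5 sequencing batches had been taken out. Library medians still differed between stages, by −0.22 log2 units for EILP minus ALP, 0.09 for ILCp minus EILP and −0.13 for ILCp minus ALP. An SD of these values leaves out the spread between batches, and the number of reads behind a value is unknown. Batch 3 held EILP 3 and EILP 4 alone and batch 5 held no ILCp. Removing batch with the groups kept set the mean of EILP 3 and EILP 4 at the EILP mean. H2-Eb1, for example, stood at 5.04 and 5.33 log2 CPM there, against an EILP mean of 5.18. Counts of EILP libraries above or below other stages include these libraries, which are not independent of the rest. Separation of stages describes values after batch removal, and the share of all genes without overlap was not computed. The genes of the sorting gates were read as a check of the labels. Tcf7 ranged from −2.66 to 3.59 log2 CPM in ALP, 8.47 to 13.07 in EILP and 8.95 to 9.56 in ILCp, and Thy1 averaged −2.84 ± 1.16, 0.07 ± 0.94 and 5.30 ± 0.83 in ALP, EILP and ILCp (SD, n = 7, 7 and 5). Flt3 averaged 10.21 ± 0.69, 7.34 ± 0.55 and 3.25 ± 3.83 in the same 3 stages, and Kit was at 7.75 log2 CPM or more in all 19 libraries.

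The promoter sequences show the module on which the coactivators act. RefSeq (GRCm38.p6) gave the 250 bases before and 50 bases after a start site for 6 of the 10 genes, namely B2m, H2-K1, H2-D1, H2-Q7, H2-Aa and H2-Eb1. Of these, 5 are shown over 135 bases on the strand of the gene, 5′ to 3′, because they are the class I and class II chains with the values described below. Capitals mark TGACG (the core of the X2 element, a site for CREB and ATF proteins), ATTGG (the Y box, the NF-Y site read on this strand), GGGGATTCCC (an NF-kappaB site) and GAAANNGAAA (the repeat of interferon-responsive elements).
B2m (chr2:122147539-122147673, + strand): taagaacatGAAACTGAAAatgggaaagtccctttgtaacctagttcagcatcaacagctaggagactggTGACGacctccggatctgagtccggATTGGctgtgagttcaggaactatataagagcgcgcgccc
H2-K1 (chr17:34000324-34000458, − strand): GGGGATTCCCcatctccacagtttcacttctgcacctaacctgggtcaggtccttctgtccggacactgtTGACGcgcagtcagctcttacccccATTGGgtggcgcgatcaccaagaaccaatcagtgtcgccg
H2-D1 (chr17:35262923-35263057, + strand): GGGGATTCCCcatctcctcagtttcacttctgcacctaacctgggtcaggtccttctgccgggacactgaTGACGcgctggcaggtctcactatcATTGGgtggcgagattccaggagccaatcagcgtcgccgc
H2-Aa (chr17:34287832-34287966, − strand): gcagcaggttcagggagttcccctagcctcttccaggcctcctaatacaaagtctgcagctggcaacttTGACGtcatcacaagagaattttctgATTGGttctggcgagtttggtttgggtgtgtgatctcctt
H2-Eb1 (chr17:34305713-34305847, + strand): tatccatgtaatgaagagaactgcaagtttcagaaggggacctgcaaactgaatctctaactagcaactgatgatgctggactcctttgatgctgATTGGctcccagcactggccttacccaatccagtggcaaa

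The motifs were searched on both strands. TGACG was in 20.8% of all 32851 promoter windows and ATTGG in 37.4%. TGACG followed by ATTGG with their first bases 24 to 26 bases apart, on either strand, was in 66 windows (0.201%), and 5 of the 6 genes with an entry (B2m, H2-K1, H2-D1, H2-Q7 and H2-Aa) had this pair. That spacing was chosen after these promoters had been read, so the share is a description. H2-Eb1 had ATTGG at position −59 from its start site and no TGACG in the window. GGGGATTCCC was in 35 of the 32851 windows (0.107%), among them those of the heavy chain genes H2-K1, H2-D1 and H2-Q7. GAAANNGAAA was in 3.44% of windows and, of the 6 genes, in that of B2m. Only exact matches to these letters were counted, so other spellings of an X2 element or an interferon-responsive element would be missed. The H2-Eb1 sequence shown holds TGATG before its ATTGG, a spelling that the search did not count. Its promoter is therefore not shown to lack an X2 element. Nor does the search show that the promoters of H2-K1, H2-D1 and H2-Q7 lack an interferon-responsive element. Capitals mark matches on the strand of the gene alone. On the other strand ATTGG also occurred in H2-K1, H2-D1, H2-Q7 and H2-Eb1, and TGACG in H2-Aa, where it overlaps the match shown, and in B2m. Different motifs did not overlap, and a match of letters does not show that a factor was bound.

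Per length, B2m, H2-D1 and H2-K1 had higher mean levels than every class II gene at each of the 3 stages. B2m averaged 2570, 2890 and 3350 CPM per kilobase of exons in ALP, EILP and ILCp. H2-D1 averaged 822, 890 and 1280 CPM per kilobase in the same order, H2-K1 805, 731 and 1010, and H2-Q7 107, 120 and 163. In class II the invariant chain Cd74 averaged 73.8, 169 and 240 CPM per kilobase, H2-Ab1 75.5, 80.0 and 118, H2-Aa 29.8, 84.9 and 139, and H2-Eb1 3.60, 44.9 and 31.7. Of the coactivators, Nlrc5 averaged 5.35, 3.75 and 2.19 CPM per kilobase, and Ciita had the lowest mean of the 10 genes at each stage, with 0.421, 0.586 and 1.26. H2-D1 and H2-K1 lay within an SD of each other in ALP, where the SDs were 75.0 and 117 CPM per kilobase. In ILCp the order of H2-Aa and H2-Ab1 was not separated by their SDs of 163 and 56.5.

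Genes were compared with limma, with the groups and the batch as terms and p-values adjusted by Benjamini-Hochberg over all 18607 genes (two-sided, called below 0.05). EILP and ALP bracket the entry into the innate lymphoid path, and none of the 10 genes was called in it, against 5.05% of all genes (2.25% higher and 2.79% lower). At an unadjusted p below 0.05 there were 3 (H2-Aa, H2-Eb1 and Cd74), all with higher means in EILP. In ILCp versus EILP 1 of the 10 rose, H2-D1, where 3.21% of all genes were called (1.76% higher and 1.46% lower). In ILCp versus ALP 1 of the 10 rose, again H2-D1, against 8.24% of all genes (3.86% higher and 4.39% lower), and 7 of the 10 had an unadjusted p below 0.05. The median log2 fold change of the 10 genes was 0.18, 0.45 and 0.65 in the 3 comparisons, against 0.00, −0.08 and −0.03 over all genes. Positive fold changes numbered 8, 9 and 9 of 10. The shares of all genes given here are at the adjusted threshold. The share at an unadjusted p below 0.05 was not computed, here or for the lists below, so the 3 and 7 genes have no background beside them. With counts of 0 and 1 in 10, nothing particular to the 10 genes is read from the adjusted shares, and the comparisons share libraries. In bulk RNA of sorted cells, fewer cells with a transcript and less of it per cell cannot be told apart.

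**Figure D1:**
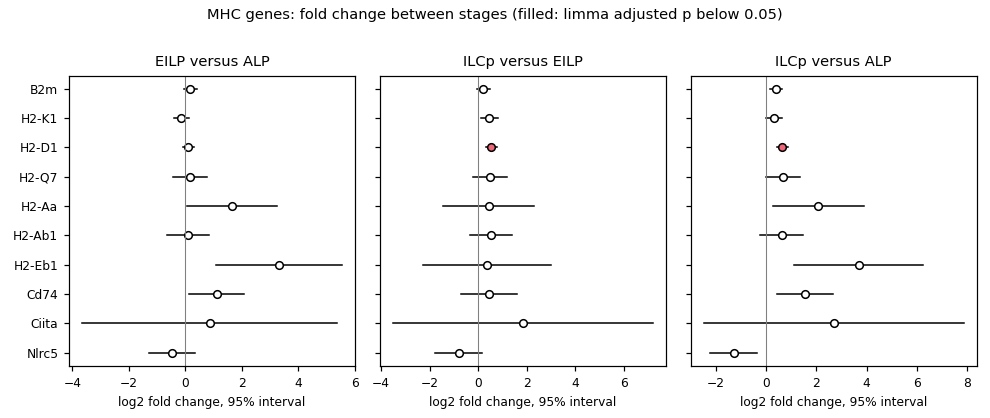
Log2 fold change of each of the 10 genes with its 95% confidence interval from limma, for EILP versus ALP, ILCp versus EILP and ILCp versus ALP; filled points passed adjusted p below 0.05. H2-D1 is the filled point in both ILCp panels, at 0.53 and 0.64, and Ciita has the widest interval in each panel.

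H2-D1 (chromosome 17, 35262730 to 35267499, GRCm38), a classical class I heavy chain, was the member that rose, and it did so at the ILCp stage. Its level ranged from 10.59 to 10.92 log2 CPM in ALP (median 10.72) and from 10.55 to 11.05 in EILP (median 10.89). ILCp 1 to ILCp 5 held 11.34, 11.37, 11.22, 11.46 and 11.58 log2 CPM. Every ILCp library therefore lay above every EILP and every ALP library, while EILP and ALP overlapped. H2-D1 was 1.45-fold higher in ILCp than in EILP (log2 fold change 0.53 ± 0.11, SE, limma adjusted p = 0.0138) and 1.56-fold higher than in ALP (0.64 ± 0.10, limma adjusted p = 0.000882). EILP and ALP differed by 0.11 ± 0.09 (limma adjusted p = 0.563). Within batches 1, 2 and 4 ILCp exceeded EILP by 0.29, 0.40 and 0.57 log2 units and ALP by 0.72, 0.66 and 0.73. The call against EILP was lost without EILP 5 (limma adjusted p = 0.0752) and without the Plzf-cre-GFP libraries (0.45, limma adjusted p = 0.0913), and after centring on library medians (0.44, limma adjusted p = 0.0985). It was also lost when the groups compared (limma adjusted p = 0.136) or the batches with both groups (limma adjusted p = 0.258) were fitted alone, at 0.44 each. Without the mean-variance trend the call was lost against EILP (limma adjusted p = 0.196) and against ALP (limma adjusted p = 0.0582).

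H2-K1 (chromosome 17, 33996017 to 34000347), the other classical heavy chain, showed a like order of libraries without passing the test. It ranged from 10.15 to 10.69 log2 CPM in ALP (median 10.32) and from 9.81 to 10.43 in EILP (median 10.33). ILCp 1 to 5 held 10.71, 10.77, 10.51, 10.46 and 11.01 log2 CPM. All 5 ILCp libraries lay above all 7 EILP libraries, and 3 of them above all ALP libraries. The difference between ILCp and EILP was 0.46 ± 0.15 (SE, limma adjusted p = 0.128), and 0.28, 0.43 and 0.28 within batches 1, 2 and 4. Between EILP and ALP it was −0.14 ± 0.13 (limma adjusted p = 0.627), which turned to 0.08 after centring on library medians. H2-K1 and H2-D1 varied together within groups (Pearson r = 0.84 over 19 libraries, a description of values from the same libraries).

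H2-Q7 (chromosome 17, 35439155 to 35443773), a heavy chain of the Qa-2 family, lay lower and scattered more. It ranged from 6.49 to 8.05 log2 CPM in ALP (median 7.20) and from 6.80 to 7.92 in EILP (median 7.59). The 5 ILCp libraries, in order of number, held 8.33, 7.76, 7.93, 7.62 and 8.09 log2 CPM. The stages overlapped, and ILCp versus ALP stood at 0.66 ± 0.32 (SE, limma adjusted p = 0.253), or 0.36 without ALP 1. Reads of near-identical heavy chain genes can be split between them, which makes each gene's own value uncertain. Of the 50-base windows in the transcripts of H2-Q7, 26.4% also occurred in another gene, against 12.8% for H2-D1, 9.63% for H2-K1 and 0% for B2m.

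A total over the 16 class I heavy chain rows of the table does not depend on how such reads were divided among those genes. The total ranged from 11.69 to 12.13 log2 CPM in ALP (median 11.91) and from 11.56 to 12.12 in EILP (median 11.95). In ILCp 1 to 5 it stood at 12.36, 12.38, 12.25, 12.32 and 12.58. As for H2-D1, every ILCp library lay above every library of the other stages. Most of the total was H2-D1 and H2-K1, with means of 2700 and 1670 of 5340 CPM in ILCp. In EILP they averaged 1870 and 1210 of 3830 CPM. The total is therefore not independent of H2-D1 and H2-K1. The total was 1.40-fold higher in ILCp than in EILP (0.48 ± 0.12, SE, limma adjusted p = 0.0362) and 1.38-fold higher than in ALP (0.46 ± 0.11, limma adjusted p = 0.0188). EILP and ALP differed by −0.02 ± 0.10 (limma adjusted p = 0.965). The rise against EILP was 0.24, 0.35 and 0.42 within batches 1, 2 and 4. Its call against EILP was lost in 22 of 35 alternatives, among them 13 of the 19 that left out 1 library, with values of 0.35 to 0.60 over all 35. Those 13 were ALP 2 to ALP 6, EILP 3, 4, 5 and 7, and ILCp 1, 2, 4 and 5. Among single libraries, the total against ALP lost its call without ALP 1, ALP 4, ILCp 1, ILCp 2 or ILCp 5 (0.38 to 0.47).

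B2m (chromosome 2, 122147686 to 122153083), the light chain of every class I molecule, overlaps Patl2 on the other strand, and these libraries carry no strand. Its level ranged from 10.82 to 11.47 log2 CPM in ALP (median 11.02) and from 11.18 to 11.43 in EILP (median 11.25). ILCp 1 to 5 held 11.60, 11.55, 11.31, 11.31 and 11.65 log2 CPM. Of the 5 ILCp libraries 3 lay above all EILP and all ALP libraries. ILCp versus ALP stood at 0.39 ± 0.12 (SE, limma adjusted p = 0.0561), ILCp versus EILP at 0.21 ± 0.12 (limma adjusted p = 0.433) and EILP versus ALP at 0.18 ± 0.10 (limma adjusted p = 0.397). ILCp versus ALP passed without ALP 4 (limma adjusted p = 0.0436), without ALP 5 (limma adjusted p = 0.0155) and after centring on library medians (0.52, limma adjusted p = 0.0284).

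**Figure D2:**
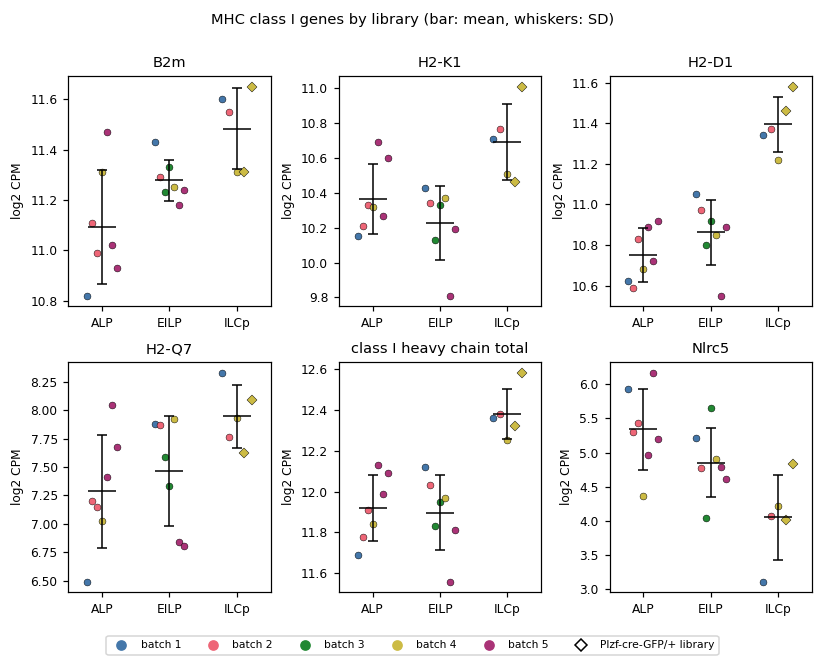
Log2 CPM of the class I genes in each library at the ALP, EILP and ILCp stages, coloured by sequencing batch, with diamonds for Plzf-cre-GFP/+ libraries, a bar for the group mean and whiskers for the SD. The 5 ILCp libraries of H2-D1 sit between 11.22 and 11.58, above all libraries of the other stages.

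Nlrc5 (chromosome 8, 94434356 to 94527272), the class I coactivator, had its lowest mean in ILCp, without passing the test. It ranged from 4.37 to 6.17 log2 CPM in ALP (median 5.30) and from 4.04 to 5.66 in EILP (median 4.79). The 5 ILCp libraries, in order of number, held 3.11, 4.07, 4.22, 4.01 and 4.84 log2 CPM, and 4 of them lay below all ALP libraries. ILCp versus ALP stood at −1.29 ± 0.44 (SE, limma adjusted p = 0.0893) and was −2.82, −1.30 and −0.01 within batches 1, 2 and 4. It passed without ALP 4 (−1.79, limma adjusted p = 0.0310) and shrank to −0.81 without ILCp 1. ILCp versus EILP stood at −0.80 ± 0.45 (limma adjusted p = 0.401), or −0.31 without ILCp 1. EILP versus ALP stood at −0.48 ± 0.38 (limma adjusted p = 0.550), with −0.75 without ALP 4 and −0.30 without ALP 1.

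Of the class I heavy chain genes outside the 10, 13 of 20 listed were in the table. None was called in EILP versus ALP or in ILCp versus EILP, and 3 had an unadjusted p below 0.05 in each. Of all genes 5.05% and 3.21% were called there, and 8.24% in ILCp versus ALP. In that last comparison 1 of the 13 fell, H2-T23, which encodes Qa-1, the ligand of the NK cell receptor CD94-NKG2A. H2-T23 held 7.68, 7.42, 7.61, 7.22 and 7.59 log2 CPM in ILCp 1 to 5, against 7.81 to 8.25 in ALP (median 8.10). It was lower in all 5 ILCp libraries than in any ALP library (−0.55 ± 0.13, SE, limma adjusted p = 0.0120), opposite in sign to H2-D1. The call was lost without ALP 4 (limma adjusted p = 0.0680), without ILCp 2 (limma adjusted p = 0.0648) and after centring on library medians (−0.42, limma adjusted p = 0.0897). It was also lost with the compared groups alone, with their shared batches alone and without the mean-variance trend (limma adjusted p = 0.0672, 0.136 and 0.103). H2-T23 shared 13.6% of its 50-base windows with other genes and overlaps the antisense gene A930015D03Rik. H2-Q6 was not called, at 0.99 ± 0.31 in ILCp versus ALP and 0.98 ± 0.32 in ILCp versus EILP (SE, limma adjusted p = 0.0607 and 0.116). Its ILCp libraries (8.05 to 8.69 log2 CPM) lay above all ALP libraries (6.77 to 7.99) and overlapped EILP (6.46 to 8.09). It shared 32.0% of its 50-base windows with other genes, most of all with H2-Q7 (13.9%).

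Peptide loading on class I changed in single genes. Of 8 such genes 2 rose in EILP versus ALP, 1 fell in ILCp versus EILP and 1 rose in ILCp versus ALP. The list had medians of 0.20, 0.05 and 0.09, and 5.05%, 3.21% and 8.24% of all genes were called. Tapbp, which encodes tapasin, the bridge between class I and the peptide transporter, overlaps Zbtb22 and rose at the first step. It ranged from 8.51 to 9.09 log2 CPM in EILP (median 8.78), against 7.96 to 8.48 in ALP (median 8.19), and the stages did not overlap (0.54 ± 0.14, SE, limma adjusted p = 0.0305). In ILCp 1 to 5 it held 8.74, 9.41, 8.98, 9.24 and 9.38 log2 CPM, all above ALP (0.93 ± 0.16, limma adjusted p = 0.00131). The call for EILP versus ALP was lost in 15 of 34 alternatives, with values of 0.43 to 0.58. Among these were all single ALP and EILP libraries left out except ALP 2, ALP 7 and EILP 2. Calr, the calreticulin chaperone, had its highest levels in EILP. Its level was 10.01 to 10.57 log2 CPM in EILP (median 10.14), against 8.82 to 9.35 in ALP (median 9.04), a rise of 1.16 ± 0.17 (limma adjusted p = 0.000468). ILCp 1 to 5 held 9.27, 8.82, 9.58, 9.45 and 8.53 log2 CPM, below every EILP library (−1.07 ± 0.20, limma adjusted p = 0.00849). That fall lost its call without ILCp 2 (−0.91, limma adjusted p = 0.0525) and without EILP 1 and ILCp 2 together (−0.99, limma adjusted p = 0.0885). The call was also lost with the compared groups alone, with their shared batches alone and without the mean-variance trend (limma adjusted p = 0.133, 0.321 and 0.0576). The peptide transporter genes Tap1 and Tap2 averaged 8.45 ± 0.23 and 8.10 ± 0.12 log2 CPM in ALP, 7.96 ± 0.15 and 7.64 ± 0.24 in EILP, and 8.0 ± 0.29 and 8.05 ± 0.24 in ILCp (SD, n = 7, 7 and 5), and were called in none of the comparisons.

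The immunoproteasome, whose inducible subunits favour peptides that fit class I, had 1 called member of 5, in both comparisons of ILCp. Of all genes 3.21% were called in ILCp versus EILP and 8.24% in ILCp versus ALP. The immunoproteasome had none in EILP versus ALP (0 at an unadjusted p below 0.05), where 5.05% of all genes were called. Psmb9, one of its catalytic subunits, ranged from 7.84 to 8.26 log2 CPM in ALP (median 8.02) and from 7.58 to 8.12 in EILP (median 7.89), and held 7.30, 7.19, 7.22, 7.21 and 7.32 in ILCp 1 to 5. Every ILCp library lay below every EILP and ALP library. Psmb9 fell by 0.63 on the log2 scale against EILP (SE 0.13, limma adjusted p = 0.0154), a call that was lost without ILCp 2 (−0.60, limma adjusted p = 0.0525). With the compared groups alone, with their shared batches alone and without the mean-variance trend it did not pass either (limma adjusted p = 0.0718, 0.0720 and 0.116). Against ALP it fell by 0.78 (SE 0.13, limma adjusted p = 0.000868). It overlaps Tap1 on the other strand. Psmb8, another catalytic subunit, averaged 9.17 ± 0.08 in ALP, 9.31 ± 0.12 in EILP and 9.06 ± 0.25 log2 CPM in ILCp and was not called.

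H2-Eb1 (chromosome 17, 34305867 to 34316674), the beta chain of I-E, showed the widest range between stages among the class II chains. C57BL/6 mice lack I-E at the surface because the alpha chain gene H2-Ea carries a deletion. ALP 1 to ALP 7 held −2.10, 0.05, 2.98, 2.72, 3.06, 3.26 and 3.06 log2 CPM of H2-Eb1. In EILP it ranged from 2.72 to 8.38 (median 5.04), with EILP 1 the highest and EILP 7 the lowest. The 5 ILCp libraries, in order of number, held 6.31, 6.52, 4.79, 5.00 and 5.09. All 5 ILCp and 6 of 7 EILP libraries lay above every ALP library. EILP versus ALP stood at 3.32 ± 1.05 (SE, limma adjusted p = 0.0901), and at 10.48, 3.39, 3.34 and 0.16 within batches 1, 2, 4 and 5. ILCp versus ALP stood at 3.68 ± 1.20 (limma adjusted p = 0.0753), and at 8.42, 5.00 and 2.24 within batches 1, 2 and 4. It passed without EILP 1 (3.96, limma adjusted p = 0.0233) and without EILP 7 (4.03, limma adjusted p = 0.0492). Without ALP 1 the values against ALP were 2.10 for EILP and 2.20 for ILCp. The largest of these differences rests on batch 1, where ALP 1 held the lowest and EILP 1 the highest level of all 19 libraries.

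Cd74, the invariant chain (chromosome 18, 60803848 to 60812652), followed a like order. It ranged from 5.76 to 7.62 log2 CPM in ALP (median 6.43) and from 6.71 to 8.98 in EILP (median 7.44). In ILCp 1 to 5 it stood at 7.72, 9.62, 8.02, 7.17 and 8.23 log2 CPM. Of these 4 lay above all ALP libraries, and 3 of the 7 EILP libraries did. EILP versus ALP stood at 1.11 ± 0.46 (SE, limma adjusted p = 0.212), with 3.22, 0.34, 1.31 and 0.38 within batches 1, 2, 4 and 5, and 0.68 without EILP 1. ILCp versus ALP stood at 1.56 ± 0.52 (limma adjusted p = 0.0849). It passed without EILP 1 (1.67, limma adjusted p = 0.0350), and the value was 0.73 without ILCp 2 (limma adjusted p = 0.516).

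H2-Aa (chromosome 17, 34282744 to 34287823), the alpha chain of I-A, ranged from 1.82 to 5.84 log2 CPM in ALP (median 5.16) and from 5.05 to 7.79 in EILP (median 6.44). ILCp 1 to 5 held 6.17, 8.92, 5.77, 6.38 and 6.45 log2 CPM. ILCp 2 stood far above the other ILCp libraries, and 5 EILP and 4 ILCp libraries lay above all ALP libraries. EILP versus ALP stood at 1.65 ± 0.75 (SE, limma adjusted p = 0.266), and within batches 1, 2, 4 and 5 the difference was 4.05, 3.36, 1.16 and −0.40. ILCp versus ALP stood at 2.08 ± 0.86 (limma adjusted p = 0.169), or 0.84 without ILCp 2. Its partner H2-Ab1 (chromosome 17, 34257689 to 34269419), the beta chain of I-A, differed less. H2-Ab1 ranged from 5.67 to 6.91 log2 CPM in ALP (median 6.72) and from 5.85 to 7.15 in EILP (median 6.49), and ILCp 1 to 5 held 7.20, 8.02, 6.60, 6.86 and 6.57. EILP versus ALP stood at 0.09 ± 0.35 (limma adjusted p = 0.951), with 1.46, 0.53, 0.24 and −0.92 within batches 1, 2, 4 and 5. Batch 5 thus held the lowest difference of both chains, and the sign for H2-Ab1 turned without ALP 1, ALP 2, EILP 1 or EILP 5 (−0.14 to −0.04).

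**Figure D3:**
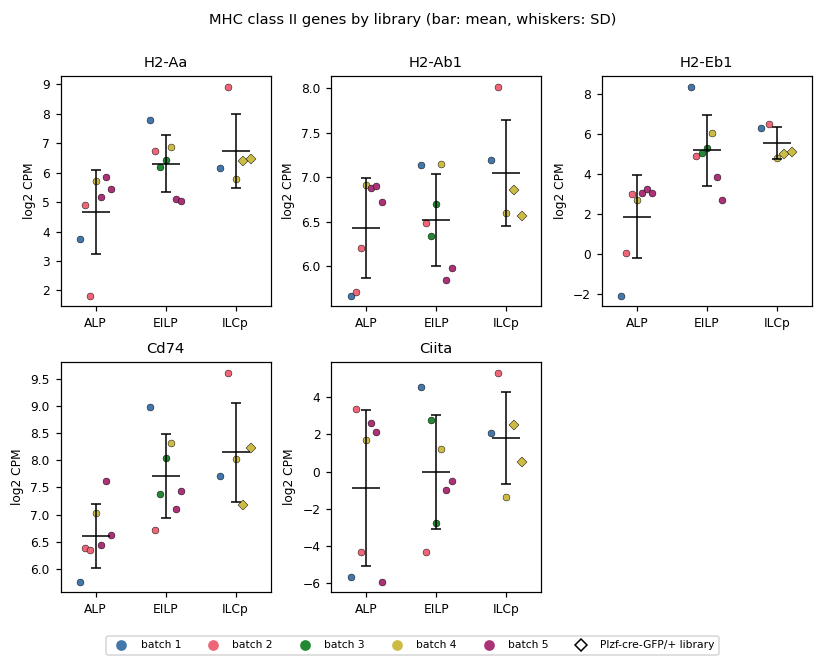
Log2 CPM of the class II genes, Cd74 and Ciita in each library at the ALP, EILP and ILCp stages, coloured by sequencing batch, with diamonds for Plzf-cre-GFP/+ libraries, a bar for the group mean and whiskers for the SD. EILP 1 (8.38 for H2-Eb1) and ILCp 2 (8.92 for H2-Aa) stand above the rest of their groups.

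Between ILCp and EILP the class II chains did not separate. The log2 fold changes were 0.43 ± 0.89 for H2-Aa, 0.53 ± 0.41 for H2-Ab1, 0.36 ± 1.25 for H2-Eb1 and 0.44 ± 0.54 for Cd74 (SE), with limma adjusted p of 0.868, 0.566, 0.930 and 0.746. Their 95% confidence intervals ran from −1.46 to 2.31, −0.34 to 1.40, −2.29 to 3.01 and −0.71 to 1.59, so that differences of either sign remain within the error. All 4 were positive in batch 2 (2.20, 1.53, 1.61 and 2.92) and negative in batch 4 (−0.67, −0.47, −1.10 and −0.52). In batch 1 H2-Aa, H2-Eb1 and Cd74 stood at −1.63, −2.06 and −1.26 and H2-Ab1 at 0.06. Without ILCp 2, H2-Aa, H2-Eb1 and Cd74 turned to −0.68, −0.13 and −0.30, and H2-Ab1 stood at 0.04. Within groups the class II chains and Cd74 varied together over the 19 libraries, as a description. Pearson r was 0.824 between H2-Ab1 and H2-Eb1, 0.743 between H2-Aa and H2-Ab1, and 0.737 between Cd74 and H2-Ab1. It was lower between H2-Aa and Cd74 (0.668), H2-Eb1 and Cd74 (0.638), and H2-Aa and H2-Eb1 (0.492). Such values were not particular to class II, since H2-Eb1 and the class I gene H2-Q7 had r of 0.722.

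**Figure D4:**
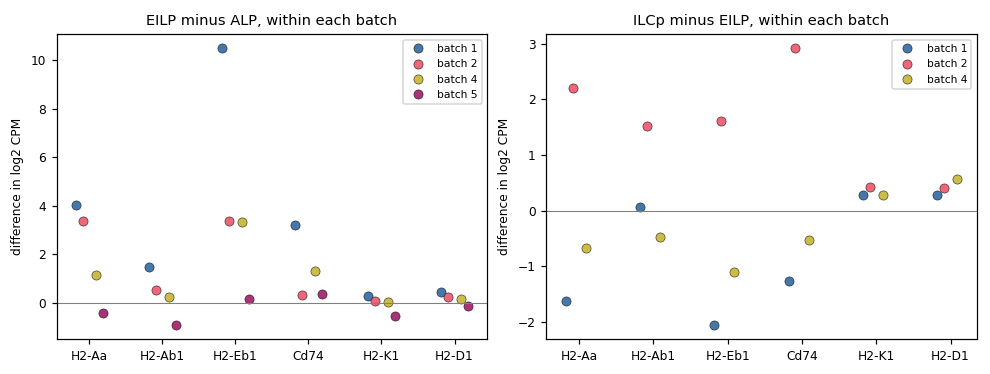
Difference in log2 CPM between stages within each sequencing batch, for EILP minus ALP (batches 1, 2, 4 and 5) and ILCp minus EILP (batches 1, 2 and 4). H2-K1 and H2-D1 lie above 0 in all 3 batches for ILCp minus EILP, while the class II genes lie on both sides of 0.

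Ciita (chromosome 16, 10480059 to 10528418), the class II coactivator, was near the limit of the data. ALP 1 to 7 held −5.70, 3.38, −4.34, 1.68, 2.62, 2.13 and −5.94 log2 CPM, and EILP ranged from −4.34 to 4.54 (median −0.53). The 5 ILCp libraries, in order of number, held 2.07, 5.33, −1.39, 2.51 and 0.54. ALP 3 and EILP 2 shared 1 tied lowest value within batch 2, the mark of a zero in this table. None of the 3 comparisons was called (limma adjusted p = 0.894, 0.776 and 0.607 for EILP versus ALP, ILCp versus EILP and ILCp versus ALP). The highest Ciita levels of EILP and ILCp were in EILP 1 and ILCp 2, the libraries that also held the highest Cd74 and H2-Aa of their groups. ALP went the other way. Its highest Ciita was in ALP 2, where Cd74 (6.39 log2 CPM) and H2-Aa (4.91) lay below the ALP medians of 6.43 and 5.16. The highest Cd74 and H2-Aa of ALP were in ALP 6. Ciita overlaps Dexi on the other strand.

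Of the 5 peptide exchange genes of class II, H2-DMa, H2-Ob and H2-Oa passed the test in at least 1 comparison, and H2-DMb1 and H2-DMb2 in none. H2-DMa encodes the alpha chain of H2-DM, which frees the class II groove of its invariant chain peptide, and H2-Oa and H2-Ob encode H2-O, which restrains H2-DM. Of 6 class II genes outside the 10, 2 fell in EILP versus ALP (H2-DMa and H2-Ob) and 1 rose in ILCp versus EILP (H2-Oa). In ILCp versus ALP 1 rose and 2 fell. List medians were −0.41, −0.43 and −0.61 in the same order, and 5.05%, 3.21% and 8.24% of all genes were called. H2-DMa ranged from 8.09 to 8.64 log2 CPM in ALP (median 8.58) and from 6.93 to 7.75 in EILP (median 7.29), and ILCp 1 to 5 held 6.49, 6.67, 6.77, 6.80 and 6.12. The 3 stages did not overlap. H2-DMa fell by 1.17 on the log2 scale in EILP versus ALP (SE 0.17, limma adjusted p = 0.000365) and by 1.90 in ILCp versus ALP (SE 0.19, limma adjusted p = 8.89e-06). ILCp versus EILP stood at −0.72 ± 0.20 (limma adjusted p = 0.0585). Both calls against ALP held in all 34 alternatives. H2-DMb1, which encodes a beta chain of H2-DM, ranged from 5.38 to 6.37 log2 CPM in ALP and from 4.55 to 5.81 in EILP, and ILCp 1 to 5 held 5.65, 5.32, 5.64, 5.37 and 4.44. The stages overlapped, and H2-DMb1 stood at −0.51 ± 0.28 in EILP versus ALP and −0.51 ± 0.32 in ILCp versus ALP (SE, limma adjusted p = 0.386 and 0.409). Brd2 overlaps H2-DMa on the other strand, and its reads cannot be told apart there.

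H2-Ob ranged from 7.75 to 8.60 log2 CPM in ALP (median 8.28) and from 6.56 to 7.34 in EILP (median 7.0), and ILCp 1 to 5 held 6.57, 7.35, 6.67, 7.43 and 6.27. Neither EILP nor ILCp overlapped ALP. It fell by 1.26 in EILP versus ALP (SE 0.22, limma adjusted p = 0.00239) and by 1.43 in ILCp versus ALP (SE 0.25, limma adjusted p = 0.00194). The second of these calls was lost with the shared batches alone (−1.48, limma adjusted p = 0.0657). Its partner H2-Oa took another course, with 3.77 to 4.92 log2 CPM in ALP (median 4.29) and 3.64 to 4.59 in EILP (median 4.08), and 5.75, 5.84, 5.32, 5.76 and 6.34 in ILCp 1 to 5. Every ILCp library lay above all others. H2-Oa rose by 1.74 ± 0.35 in ILCp versus EILP (SE, limma adjusted p = 0.0133) and by 1.42 ± 0.33 in ILCp versus ALP (limma adjusted p = 0.0142). The rise over EILP lost its call without EILP 5 (1.48, limma adjusted p = 0.0753), the rise over ALP without ILCp 2 (1.40, limma adjusted p = 0.0553), and both without the Plzf-cre-GFP libraries. Both were also lost with the shared batches alone (1.72 and 1.38, limma adjusted p = 0.170 and 0.0608), and the rise over ALP with the compared groups alone (limma adjusted p = 0.0609). H2-Oa overlaps the antisense gene BC051537.

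**Figure D5:**
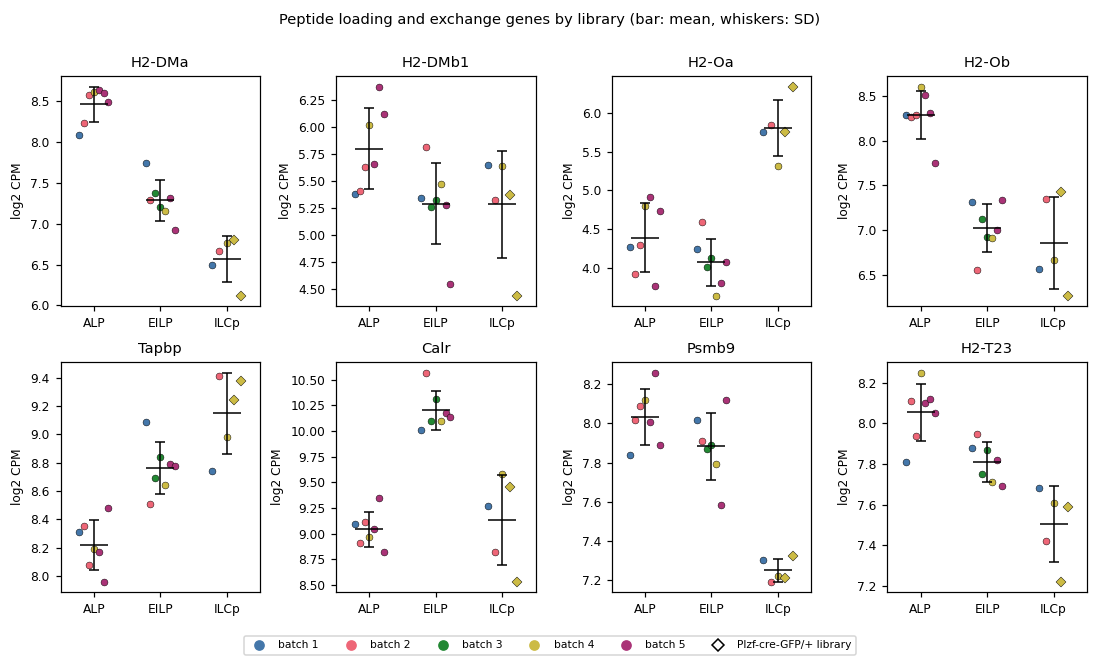
Log2 CPM of peptide exchange genes (H2-DMa, H2-DMb1, H2-Oa, H2-Ob), class I loading genes (Tapbp, Calr), the immunoproteasome gene Psmb9 and H2-T23 in each library, coloured by sequencing batch, with diamonds for Plzf-cre-GFP/+ libraries, a bar for the mean and whiskers for the SD. H2-DMa lies lower at each later stage without overlap, while H2-Oa is highest in ILCp and Calr in EILP.

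Of 7 genes of class II antigen processing 3 fell and 1 rose in EILP versus ALP. None was called in ILCp versus EILP (2 at an unadjusted p below 0.05), and 1 rose in ILCp versus ALP. The shares of all genes called were 5.05%, 3.21% and 8.24% in these comparisons. Ctss, which encodes cathepsin S, the protease that trims the invariant chain, ranged from 5.54 to 6.97 log2 CPM in EILP (median 6.33), against 6.82 to 8.07 in ALP (median 7.56). Only the highest EILP and the lowest ALP library overlapped, and Ctss fell by 1.20 (SE 0.29, limma adjusted p = 0.0207). Ctsb (cathepsin B) fell by 0.59 (SE 0.14, limma adjusted p = 0.0195), and the asparaginyl endopeptidase gene Lgmn by 1.94 (SE 0.50, limma adjusted p = 0.0318). The call of Ctss was lost without ALP 4, ALP 6, EILP 2, EILP 5 or EILP 6 (−1.20 to −0.95), and that of Ctsb without ALP 1, EILP 2, EILP 5 or EILP 7 (−0.58 to −0.49). Both were lost after centring on library medians (−0.99 for Ctss and −0.37 for Ctsb) and without the mean-variance trend (limma adjusted p = 0.0527 and 0.122). March8, a ubiquitin ligase that lowers surface proteins including class II, stood at 3.52 to 6.39 log2 CPM in EILP (median 4.08), against −5.72 to 2.96 in ALP (median −3.19). It rose in EILP versus ALP (limma adjusted p = 0.0150) and in ILCp versus ALP (limma adjusted p = 0.0304). With 2 ALP libraries at the tied lowest value, the size of that change depends on the floor of the table. The first call was lost without ALP 1, EILP 6 or EILP 7, and the second without ALP 1 or 3, any of EILP 3 to 7, or ILCp 1, 2, 3 or 5. Both were lost with the compared groups alone (limma adjusted p = 0.0643 and 0.246) and with their shared batches alone (limma adjusted p = 0.106 and 0.327).

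The partners of the coactivators on DNA were read next. Of 7 genes of the RFX, CREB and NF-Y proteins, none was called in EILP versus ALP (0 at an unadjusted p below 0.05). None was called in ILCp versus EILP either (2 at an unadjusted p below 0.05). Of all genes 5.05% and 3.21% were called there, and 8.24% in ILCp versus ALP. In that last comparison 1 of the 7 fell, Nfya, the DNA-binding subunit of NF-Y. In ILCp 1 to 5 it stood at 2.4, 3.20, 2.55, 3.35 and 2.44 log2 CPM of Nfya, against 4.02 to 4.85 in ALP (median 4.39), with no overlap (−1.64 ± 0.40, SE, limma adjusted p = 0.0181). The call was lost without ILCp 1 (−1.44, limma adjusted p = 0.0568) and with the shared batches alone (−1.67, limma adjusted p = 0.0713). Rfx5, of the RFX proteins, averaged 4.24 ± 1.23, 4.28 ± 1.26 and 0.71 ± 2.32 log2 CPM in ALP, EILP and ILCp (SD), with ILCp 2 lowest at −3.24. It was not called, at −3.52 ± 1.13 in ILCp versus ALP and −3.57 ± 1.17 in ILCp versus EILP (SE, limma adjusted p = 0.0688 and 0.118).

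Interferons are the best known inducers of MHC genes, and 11 genes of their receptors and signalling were read. In EILP versus ALP 3 fell and 1 rose, in ILCp versus EILP 1 rose, and in ILCp versus ALP 2 rose and 2 fell. The shares of all genes called were 5.05%, 3.21% and 8.24% in the same order. A chain of each receptor type fell at the first step, while the other chains, Ifngr1 and Ifnar1, were called in none of the comparisons. Ifngr1 stood at −0.50 ± 0.27, 1.07 ± 0.32 and 0.56 ± 0.31 in the same order (SE, limma adjusted p = 0.363, 0.0852 and 0.324). Ifnar1 stood at −1.45 ± 1.25, −2.44 ± 1.48 and −3.90 ± 1.43 (limma adjusted p = 0.587, 0.439 and 0.117). Ifngr2, a chain of the interferon gamma receptor, ranged from 4.00 to 5.46 log2 CPM in EILP (median 4.77), against 5.92 to 6.75 in ALP (median 6.42). It fell by 1.57 in EILP versus ALP (SE 0.29, limma adjusted p = 0.00337) and was not called in ILCp versus ALP (−1.10 ± 0.33, limma adjusted p = 0.0524). Ifnar2, a chain of the type I interferon receptor, fell by 1.15 in EILP versus ALP (SE 0.19, limma adjusted p = 0.00175) and by 1.57 in ILCp versus ALP (SE 0.22, limma adjusted p = 0.000262). Irf9, which joins STAT proteins on interferon-responsive elements, was the other gene that fell in both, by 0.88 in EILP versus ALP (limma adjusted p = 0.00493) and by 0.83 in ILCp versus ALP (limma adjusted p = 0.0141). The call against ALP in ILCp was lost without ILCp 1 (−0.65) or ILCp 2 (−0.72), after centring on library medians (−0.70, limma adjusted p = 0.0540) and without the mean-variance trend (limma adjusted p = 0.0532). The kinase genes Jak1 and Jak2, shared with other cytokine receptors, rose. Jak2 ranged from 5.33 to 6.01 log2 CPM in ALP (median 5.64) and from 6.32 to 7.36 in EILP (median 6.91), and ILCp 1 to 5 held 7.47, 7.89, 7.66, 7.62 and 8.44, with no overlap between stages. It rose by 1.16 ± 0.22 in EILP versus ALP (SE, limma adjusted p = 0.00497) and by 2.14 ± 0.26 in ILCp versus ALP (limma adjusted p = 5.89e-05). Jak1, which overlaps Raver2, rose by 1.04 ± 0.14 in ILCp versus EILP (limma adjusted p = 0.00120) and by 1.25 ± 0.14 in ILCp versus ALP (limma adjusted p = 2.78e-05). The rise over EILP lost its call with the compared groups alone (1.06, limma adjusted p = 0.0536) and with their shared batches alone (1.06, limma adjusted p = 0.141).

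Markers of cell types that carry class II were read beside these genes. The summed level of H2-Aa, H2-Ab1, H2-Eb1 and Cd74 was 119 to 383 CPM in ALP (median 249), 244 to 1200 in EILP (median 353) and 376 to 1620 in ILCp (median 509). EILP 1 (1200 CPM) and ILCp 2 (1620 CPM) were the highest libraries. The summed B cell markers (6 of 8 in the table) had lower medians at the later stages (92.9, 74.5 and 54.2 CPM). They summed to 76.9 to 209 CPM in ALP, 51.5 to 86.6 in EILP and 27.0 to 56.4 in ILCp. Most of that sum was Cd79b, with means of 85.8, 69.4 and 47.5 CPM. The defining gene Pax5 was at the tied lowest value in 18 of 19 libraries. Conventional dendritic cell markers (8 of 8) summed to 38.8 to 170 CPM in ALP, 7.70 to 81.0 in EILP and 82.0 to 155 in ILCp. In ILCp versus ALP 3 of these 8 had positive and 5 negative fold changes, with 2 called higher and 1 lower (8.24% of all genes called). Itgax, which encodes CD11c, was lower, at −3.89 ± 1.44 log2 CPM in ILCp and 4.34 ± 1.13 in ALP (SD, n = 5 and 7). Xcr1, a chemokine receptor of cross-presenting dendritic cells, was higher, at 5.25 ± 1.00 in ILCp and −4.76 ± 2.75 in ALP. Batf3 was called higher in EILP and ILCp than in ALP (1.03 ± 2.15, 1.93 ± 0.85 and −4.22 ± 1.82). Of its ALP libraries 5 were at the tied lowest value. In ILCp most of the sum was Ccr7 and Xcr1, with means of 63.1 and 45.1 CPM. Monocyte and macrophage markers (7 of 8) summed to 157 to 1930 CPM in ALP, 98.6 to 841 in EILP and 792 to 1910 in ILCp. In ILCp most of that sum was Ccr2, a chemokine receptor of monocytes that some lymphoid cells also carry, with a mean of 1090 CPM in ILCp and 41.3 CPM in ALP (log2 fold change 4.87 ± 0.51, SE, limma adjusted p = 1.61e-05). Csf1r, Cd68 and Lyz2 of that list had the opposite sign in ILCp versus ALP. Csf1r, the receptor of the macrophage growth factor, fell by 6.46 (SE 1.52, limma adjusted p = 0.0144), and Cd68 and Lyz2 stood at −3.64 ± 1.24 and −4.10 ± 1.81 (limma adjusted p = 0.0896 and 0.203). Plasmacytoid dendritic cell markers (5 of 6) summed to 326 to 724 CPM in ALP, 162 to 464 in EILP and 107 to 344 in ILCp. Most of that sum in EILP was Ly6c2, with means of 83.0 CPM in ALP and 211 in EILP (1.56 ± 0.79, SE, limma adjusted p = 0.327). The others, Siglech, Ccr9, Cox6a2 and Bst2, were called lower in EILP versus ALP, at −8.45, −7.81, −3.77 and −1.19. The part of such cells in the class II values was not tested.

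The reporter strains could be set side by side within batch 4, where ILCp 4 and ILCp 5 were Plzf-cre-GFP/+ and ILCp 3 was Tcf7EGFP/+. H2-D1 was at 11.46 and 11.58 log2 CPM in the Plzf-cre-GFP/+ libraries, against 11.22 in the Tcf7EGFP/+ library. Cd74 was at 7.17 and 8.23, against 8.02, and H2-Aa at 6.38 and 6.45, against 5.77. With 1 library on a side, no test was made.

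The genes most like B2m over the 19 libraries, among 9342 genes with a mean above 2 log2 CPM, were Prdm11 (Pearson r = 0.857), Bcas1 (0.843), Lonp2 (0.837), Pld3 (0.831) and Irgq (0.822). The genes most like Cd74 were Tgoln1 (0.853), Mrgbp (0.851), Cd96 (0.848), Rnf181 (0.845) and Kdsr (0.835). The correlations describe libraries that share stages and processing, and no p was computed.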

How the data were processed

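Per the labels' protocols, RNA was taken up with RNeasy plus micro columns, and the SMARTer Ultra Low (version 3) and Nextera XT kits, which do not mark strand, gave the libraries. The submitters' processing notes name bcl2fastq 1.8.4, STAR 2.4.0h, edgeR, limma and mm10, with no role or order, and how reads were counted, and on which annotation, is not given in the sources used here. Values are as deposited by the authors, in a table of log2 CPM of 18607 genes in 19 libraries, with 9 empty columns. From the values, the sum of CPM was 908573 to 1035204 per library, and the largest batch coefficient was 1.84e-08 next to the groups, against 6.01 for batch alone. Batch had therefore been removed with the groups kept, which does not alter fold changes estimated with a batch term and makes SDs within groups too small. Pairwise correlations of libraries ranged from 0.376 to 0.904. No counts were used, so depth is unknown and no counting interval was computed.

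Genes were tested with limma 3.58.1 (R 4.3.3, two-sided, with a mean-variance trend) on the values as deposited, with the groups and batch as fixed effects (12 residual degrees of freedom), with no filter and no pseudocount, and Benjamini-Hochberg adjustment over the whole table. The procedure was tested on simulated data. Fold changes carry the SE of this model, and levels the SD over libraries. EILP 3 and EILP 4, alone in batch 3, enter the error estimates but leave the fold changes as they are.

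Replicate numbers were not treated as pairs, since the labels tie them to no shared animal, litter or day. Positions and exon lengths are from GENCODE M21 (GRCm38), and promoter sequences from RefSeq (GRCm38.p6). Overlapping genes were searched for the 10 members and the genes named by the rule below. Besides the overlaps given above, Nlrc5 overlaps 9330175E14Rik, Ctss Hmgb1-ps5, Ctsb Fdft1 and Irf9 Rnf31. Reads of such pairs may be mixed. The members, the gene lists, the tests and the other settings were chosen with earlier results of these data known. The rule for named genes took the 10 members and, from each other list, up to 2 higher and 2 lower genes per comparison with the smallest adjusted p. H2-Q6, H2-DMb1, H2-DMb2, Tap1, Tap2, Psmb8, Lgmn, Rfx5, Ifngr1 and Ifnar1 are outside this rule and were picked with their values known. The same holds for Irf9 in EILP, Ifngr2 in ILCp and single cell type markers. Alternatives without batch 3, without ALP 7 and EILP 2, and without EILP 1 and ILCp 2 were chosen after seeing the data.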

Additional observations from a re-analysis of the deposited data

Results flagged for a closer look

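In 3 of 81 combinations of a gene and a stage that were looked at, 1 library stood far from the others of its group (Dixon's test at the 95% level, which chance alone passes in about 1 of 20 groups). H2-Aa was at 8.92 log2 CPM in ILCp 2, against 5.77 to 6.45 in the other 4 ILCp libraries. H2-Ob was at 7.75 log2 CPM in ALP 7, against 8.26 to 8.60 in the other ALP libraries. Jak1 was at 8.70 log2 CPM in ALP 2, against 8.27 to 8.45 in the others.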

How the results depend on the processing

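Of the 10 genes, the number called in EILP versus ALP was 0 and became 1 without a batch term and 3 with batch as a random effect. In ILCp versus EILP it was 1 and became 2 without a batch term and 6 with batch as a random effect. It became 0 with the compared groups alone, with the batches that hold both groups, without the Plzf-cre-GFP libraries, after median centring, without the mean-variance trend and with a log2 fold change of at least 1. Leaving out 1 library gave 0 to 1, with 0 without EILP 5. In ILCp versus ALP it was 1 and became 6 without a batch term, 10 with batch as a random effect, 2 with the compared groups alone or median centring, and 0 without the trend or with a log2 fold change of at least 1. Leaving out 1 library gave 1 to 3, with 3 without ALP 4 or EILP 1 and 2 without ALP 5 or EILP 7. Fits without batch, or with batch as a random effect, use values already cleared of batch and count 16 residual degrees of freedom where 12 remain.

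Whether the replicate numbers pair the libraries cannot be read from these values. The correlation of deviations from group means exceeded 0.1 in 0 of 7 pairs of EILP and ALP, in 0 of 5 of ILCp and EILP, and in 1 of 5 of ILCp and ALP. Batch removal makes these deviations cancel within each batch, which pushes pairs from the same batch below 0 (down to −0.64). The counts therefore do not show that pairing is absent. With the replicate block in place of batch, 2 of the 10 genes were called in ILCp versus EILP and 2 in ILCp versus ALP.

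The class I total lost its call in ILCp versus EILP with the compared groups alone (0.35), with the batches that hold both (0.35), without the Plzf-cre-GFP libraries (0.44), after median centring (0.39), without the trend (0.48) and with a log2 fold change of at least 1 (0.48). It also lost it without batch 3 (0.48), without ALP 7 and EILP 2 (0.51) and without EILP 1 and ILCp 2 (0.60), with 0.42 to 0.58 when 1 library was left out. In ILCp versus ALP the call was lost without the Plzf-cre-GFP libraries (0.42), without the trend (0.46) and with a log2 fold change of at least 1 (0.46), with 0.38 to 0.51 when 1 library was left out. In EILP versus ALP the value turned to 0.19 after median centring, and leaving out 1 library gave −0.10 to 0.08. Centring moved all fold changes by 0.22, −0.09 and 0.13 in EILP versus ALP, ILCp versus EILP and ILCp versus ALP. H2-K1 in EILP versus ALP turned to 0.08 with it. The causes of these changes were not tested.

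Among uncalled genes the sign turned as follows. In EILP versus ALP, leaving out 1 library gave −0.07 to 0.38 for H2-Q7, −0.14 to 0.30 for H2-Ab1 and −0.67 to 2.49 for Ciita. Without EILP 1 and ILCp 2, H2-Ab1 stood at −0.12 and Ciita at −0.70. In ILCp versus EILP, H2-Aa stood at −0.12 and H2-Eb1 at −0.60 both with the compared groups alone and with shared batches, and H2-Aa at −0.09 without EILP 1 and ILCp 2. Leaving out 1 library gave −0.68 to 1.06 for H2-Aa, −0.13 to 1.71 for H2-Eb1 and −0.30 to 0.98 for Cd74. Other uncalled values kept their sign but moved by over 1.5 times when 1 library was left out. In EILP versus ALP these were B2m (0.10 to 0.25), H2-D1 (0.05 to 0.21) and H2-K1 (−0.21 to −0.01), in ILCp versus EILP H2-Q7 (0.28 to 0.75), H2-Ab1 (0.04 to 0.90) and Ciita (0.05 to 3.77), and in ILCp versus ALP H2-Ab1 (0.07 to 0.87) and Ciita (0.70 to 4.02).

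H2-D1 kept its direction in all 34 alternatives, with 0.44 to 0.68 in ILCp versus EILP (27 of 34 also kept the call) and 0.56 to 0.77 in ILCp versus ALP (32 of 34). Ciita gave no value when genes below the median level were left out. Without counts, the depth behind the low values of Ciita, March8 and H2-Eb1 is unknown.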
